A study of Homo sapiens with 10 samples.

Results

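The genes described are 40 genes of the G2 and M phases of the cell cycle, taken by symbol as a list of known mitotic genes. The rule used no value of these libraries, but the list was drawn up with earlier results of these data known. All 40 were found among the 25538 genes of the deposited count table, each on 1 line. All 40 passed the filter on low counts, which left 19433 genes for testing. The RNA was that of A549 (a lung adenocarcinoma line of human origin), which had been transiently transfected with 1 µg of a vector for GFP or for EP300 fused in frame to EGFP, and grown for 48 h in medium with 10% charcoal-stripped serum. EP300 (p300) is a histone acetyltransferase and transcriptional coactivator. The cells then received ethanol (EtOH, the vehicle) or the synthetic glucocorticoid dexamethasone (Dex, 100 nM) for 1 h, were fixed in 75% ethanol, and the GFP-positive fraction was collected by flow sorting. The libraries form 4 groups, named by vector and treatment, with 3 libraries each for GFP EtOH and GFP Dex and 2 each for P300 EtOH and P300 Dex. All groups thus shared the transfection, the stripped serum, the fixation and the sort. The labels' protocols describe both a poly(A) library kit and a stranded total RNA kit and do not say which library was made with which, so a difference of kit cannot be told apart from the differences between libraries. Whether libraries of a group were grown as separate cultures is not stated in the labels, and the p-values therefore speak only of differences between libraries, part of which may be technical.

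Cells enter mitosis when cyclin B and its kinase CDK1 become active, and the genes that build the spindle, attach chromosomes to it and divide the cell are transcribed late in the cycle. Many of these genes are held silent in resting and early-cycle cells and are turned on in G2 by the factors B-MYB, FOXM1 and NF-Y, which act at short elements near the start site, the CCAAT box and the cell cycle genes homology region (CHR). Their summed level in a population is commonly read as a sign of how many cells are dividing. In bulk RNA, however, fewer cells in G2 and M and less of these RNAs per cell cannot be told apart.

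To show these elements, the 250 bases upstream of the start site are printed for 4 members (RefSeq, GRCh38.p14), 5′ to 3′ on the gene's strand. The first is PRC1 and the second ASPM, both lower in P300 cells, the third is CCNB1, which encodes cyclin B1, and the fourth is CENPA, the member with the highest change in P300 cells. Capitals mark CCAAT or its reverse complement ATTGG, which are the core letters of the CCAAT box. They also mark the core letters of the CHR, which are TTTGAA on either strand (read as TTCAAA on the opposite one). The other CHR form, TTTAAA, reads the same on both. PRC1 lies at chr15:90994536-90994785 (minus strand), ASPM at chr1:197146670-197146919 (minus), CCNB1 at chr5:69166900-69167149 (plus) and CENPA at chr2:26785806-26786055 (plus).
PRC1: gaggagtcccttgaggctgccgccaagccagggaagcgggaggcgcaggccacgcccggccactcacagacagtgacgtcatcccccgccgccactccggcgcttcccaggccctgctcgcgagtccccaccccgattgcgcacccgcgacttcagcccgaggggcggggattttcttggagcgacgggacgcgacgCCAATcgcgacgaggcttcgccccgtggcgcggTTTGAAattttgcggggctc
ASPM: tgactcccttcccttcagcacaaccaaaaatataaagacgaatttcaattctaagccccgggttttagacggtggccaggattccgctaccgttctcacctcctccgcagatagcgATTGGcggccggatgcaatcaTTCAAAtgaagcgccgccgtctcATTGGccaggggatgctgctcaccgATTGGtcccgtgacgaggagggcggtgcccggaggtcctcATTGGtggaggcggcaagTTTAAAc
CCNB1: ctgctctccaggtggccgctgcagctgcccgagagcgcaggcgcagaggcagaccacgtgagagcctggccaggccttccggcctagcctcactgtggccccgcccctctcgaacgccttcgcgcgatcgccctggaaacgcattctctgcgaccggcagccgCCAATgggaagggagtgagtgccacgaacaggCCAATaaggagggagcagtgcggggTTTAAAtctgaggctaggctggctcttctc
CENPA: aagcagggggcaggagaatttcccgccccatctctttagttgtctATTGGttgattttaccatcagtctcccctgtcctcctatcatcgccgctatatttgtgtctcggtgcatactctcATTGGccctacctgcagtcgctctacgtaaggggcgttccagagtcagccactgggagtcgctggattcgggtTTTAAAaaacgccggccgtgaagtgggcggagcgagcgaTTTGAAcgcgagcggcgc

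PRC1 holds 1 CCAAT box, 53 to 49 bases before the start, and a TTTGAA 20 to 15 bases before it. CCNB1 holds 2 CCAAT boxes, at 87 to 83 and 55 to 51 bases, and a TTTAAA at 30 to 25 bases. In ASPM the CCAAT letters appear 4 times, all on the other strand, between 134 and 21 bases before the start. ASPM and CENPA each carry both kinds of CHR letters. In ASPM these are TTCAAA at 113 to 108 bases and TTTAAA at 7 to 2 bases. In CENPA they are TTTAAA at 57 to 52 bases and TTTGAA at 18 to 13 bases. An entry was found for 34 of the 40 members, and AURKA, BIRC5, BUB3, TPX2, TTK and UBE2C are named only. Matches were sought on both strands and counted also where they overlapped another match. CCAAT was present in 26 of 34 members (76.5%), against 33.0% of 27305 promoter windows of the same length. TTTGAA or TTTAAA was present in 24 (70.6%), against 22.1% of all windows. Both elements were present in 21 of 34 members (61.8%), against 7.85% of all windows. These letter matches are a description and do not show that a factor binds there. The changes of members with and without the letters were set side by side. In EtOH, the median log2 difference between P300 and GFP cells, minus that of all tested genes, was -0.88 for the 26 members with CCAAT and -0.74 for the 8 without. It was -0.84 for the 24 with TTTGAA or TTTAAA and -0.997 for the 10 without.

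Library totals ran from 9215550 to 13122367 gene counts in 9 libraries, while P300 EtOH replicate 2 held 2278717 and had 11861 of 25538 genes at 0. In that library 3 counts correspond to 1.32 CPM (counts per 1000000 counts). EP300 itself, counted from the gene and the vector together, held 0.0271% to 0.0386% of counts in the GFP libraries, 28.6% and 13.4% in P300 EtOH, and 28.8% and 2.42% in P300 Dex. P300 Dex replicate 2 thus carried less EP300 than the other P300 libraries. The estimated dispersion, the squared relative spread between libraries, was 0.0619 among GFP libraries and 0.681 among P300 libraries. The labelled epithelial line was checked with 9 epithelial and A549 markers, summing to 5288 to 20802 CPM per library. This sum was 12037 to 16903 CPM in GFP EtOH and lower in P300 EtOH, at 5789 and 10884 CPM, while it was 12058 to 18956 CPM in GFP Dex and 5288 and 20802 CPM in P300 Dex. Of these markers, KRT8 and KRT18 were abundant and EPCAM was low, at 1.00 to 3.89 CPM in GFP libraries and 7.27 to 18.4 CPM in P300 libraries. Of 3 leukocyte markers in the table the summed level was 0 to 3.69 CPM. Summed fibroblast markers (4 genes) were 13.9 to 29.9 CPM in GFP and 38.5 to 71.1 CPM in P300 libraries, and most of this was COL1A1. Summed endothelial markers (2 genes) were 0.916 to 2.16 CPM in GFP and 3.26 to 22.4 CPM in P300 libraries. PTPRC, the defining leukocyte gene, was at 0 to 0.662 CPM, and no marker gene in the table was at 0 in all libraries. The part of other cell types, and of these marker differences, in the results below was not tested. Marker CPM use library totals alone, and all other CPM the totals scaled by TMM factors.

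The 40 genes together took a smaller share of the RNA in P300 cells than in GFP cells. Their summed counts were 0.410%, 0.484% and 0.544% of all gene counts in GFP EtOH (0.479% ± 0.0670, SD, n = 3). In GFP Dex they were 0.479%, 0.490% and 0.631% (0.533% ± 0.0848, n = 3). In P300 EtOH they were 0.184% and 0.215% (0.199% ± 0.0215, n = 2), and in P300 Dex 0.169% and 0.348% (0.258% ± 0.126, n = 2). Every P300 library lay below every GFP library. Since EP300 takes up to 28.8% of the counts, the share was also computed without it. The P300 libraries then stood at 0.258%, 0.248%, 0.237% and 0.356%, still below the lowest GFP library at 0.410%. The exact 95% binomial interval of the lowest-depth library, P300 EtOH replicate 2, was 0.241% to 0.255% without EP300, and such intervals cover counting error only. MKI67 supplied 17.8% to 27.8% of the members' counts in each library. Without MKI67 and EP300 the shares were 0.316% to 0.474% in GFP and 0.182% to 0.262% in P300 libraries, again without overlap.

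**Figure D1:**
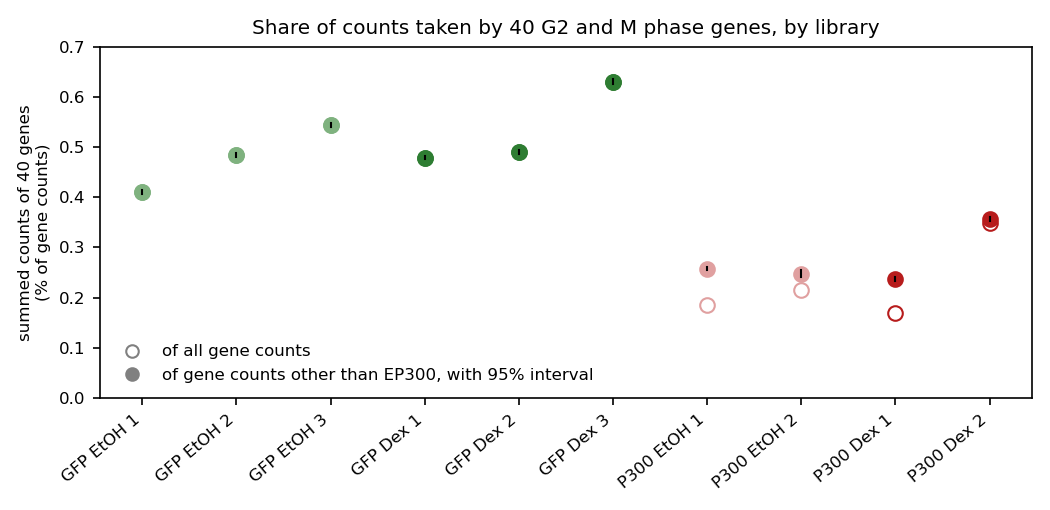
Summed counts of the 40 genes as a percentage of gene counts (y axis) in each of the 10 libraries (x axis), with EP300 in the total (open points) and left out of it (filled points, black bars are exact 95% binomial intervals). The filled points of the P300 libraries lie between 0.237% and 0.356%, all below the lowest GFP library at 0.410%.

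To ask what EP300-GFP did without hormone, P300 EtOH was compared with GFP EtOH. The median log2 difference of the 40 members was -1.06, and that of all 19433 tested genes -0.18, which puts the members at -0.88 relative to all genes. Of the members, 39 of 40 lay below the median of all genes, CENPA being the exception. By edgeR's quasi-likelihood test with Benjamini-Hochberg adjustment over all tested genes, 3 of 40 members were lower and 0 higher at an adjusted p under 0.05, against 1.19% of all genes called lower and 1.6% called higher. The 3 are ASPM, PRC1 and TPX2, all of which organise spindle microtubules. A further 18 members had an unadjusted p under 0.05 in the same direction, which makes 21 of 40, against 15.3% of all genes, and 0 were higher at that level, against 10.7%. DESeq2 called 10 members lower, against 5.45% of genes, and voom with quality weights 0, against 0.0103%. In 29 of 40 members both P300 EtOH libraries lay below all 3 GFP EtOH libraries, against 28.5% of all genes, and in 0 members both lay above, against 12.2%. Of the members, 36 were lower in both pairs of libraries with the same replicate number, against 41.7% of all genes. The 3 calls were lost when any 1 of the 6 GFP libraries was left out, and 0 of all tested genes were then called lower. Without P300 EtOH replicate 1, P300 Dex replicate 1 or P300 Dex replicate 2, 15, 16 and 14 members were called lower, but so were 12.7%, 5.91% and 5.4% of all genes. Without P300 EtOH replicate 2 the 3 members called were KIF20A, CCNA2 and BUB1, against 2.35% of all genes. With 1 library left in a P300 group, that library is assumed to vary like those of the other groups. The members' median minus all genes was -0.37 when P300 EtOH replicate 1 was left out, and -0.78 when replicate 2 was.

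With Dex, P300 against GFP gave a difference of the same direction and 0 called members. The median log2 difference of the members was -0.95 relative to all tested genes, whose own median was -0.00. By edgeR's quasi-likelihood test 0 of 40 members were called, against 0% of all genes called lower and 0.0103% called higher. At an unadjusted p under 0.05, 20 of 40 members were lower, against 4.49% of all genes, and 0 higher, against 8.18%. DESeq2 called 4 lower (ASPM, TOP2A, CCNB1 and CENPE), against 0.648% of genes. In 32 of 40 members both P300 Dex libraries lay below all 3 GFP Dex libraries, against 18.3% of all genes, and in 0 above, against 14.9%. Without P300 Dex replicate 2 the median relative to all genes was -1.29, while without P300 Dex replicate 1 it was -0.60. The cause of this difference was not tested. Set against the mean of the GFP libraries of the same treatment, the members' median minus that of all genes was -0.75 and -0.60 in P300 EtOH replicates 1 and 2. It was -1.26 and -0.63 in P300 Dex replicates 1 and 2, so that each of the 4 P300 libraries showed it.

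Across both treatments, 16 of 40 members (40%) were lower in all 4 P300 libraries than in all 6 GFP libraries, against 5.84% of all tested genes. These 16 spread over all roles but the APC/C cofactors. They are CCNB1 and CCNB2 (cyclins), AURKA, BUB1 and TTK (kinases), CENPE, NDC80 and NUF2 (kinetochore), KIF11, KIF20A, KIF23 and KIF4A (kinesins), PRC1 and ASPM (spindle), TOP2A and ANLN. The 2 comparisons with GFP share no library.

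**Figure D2:**
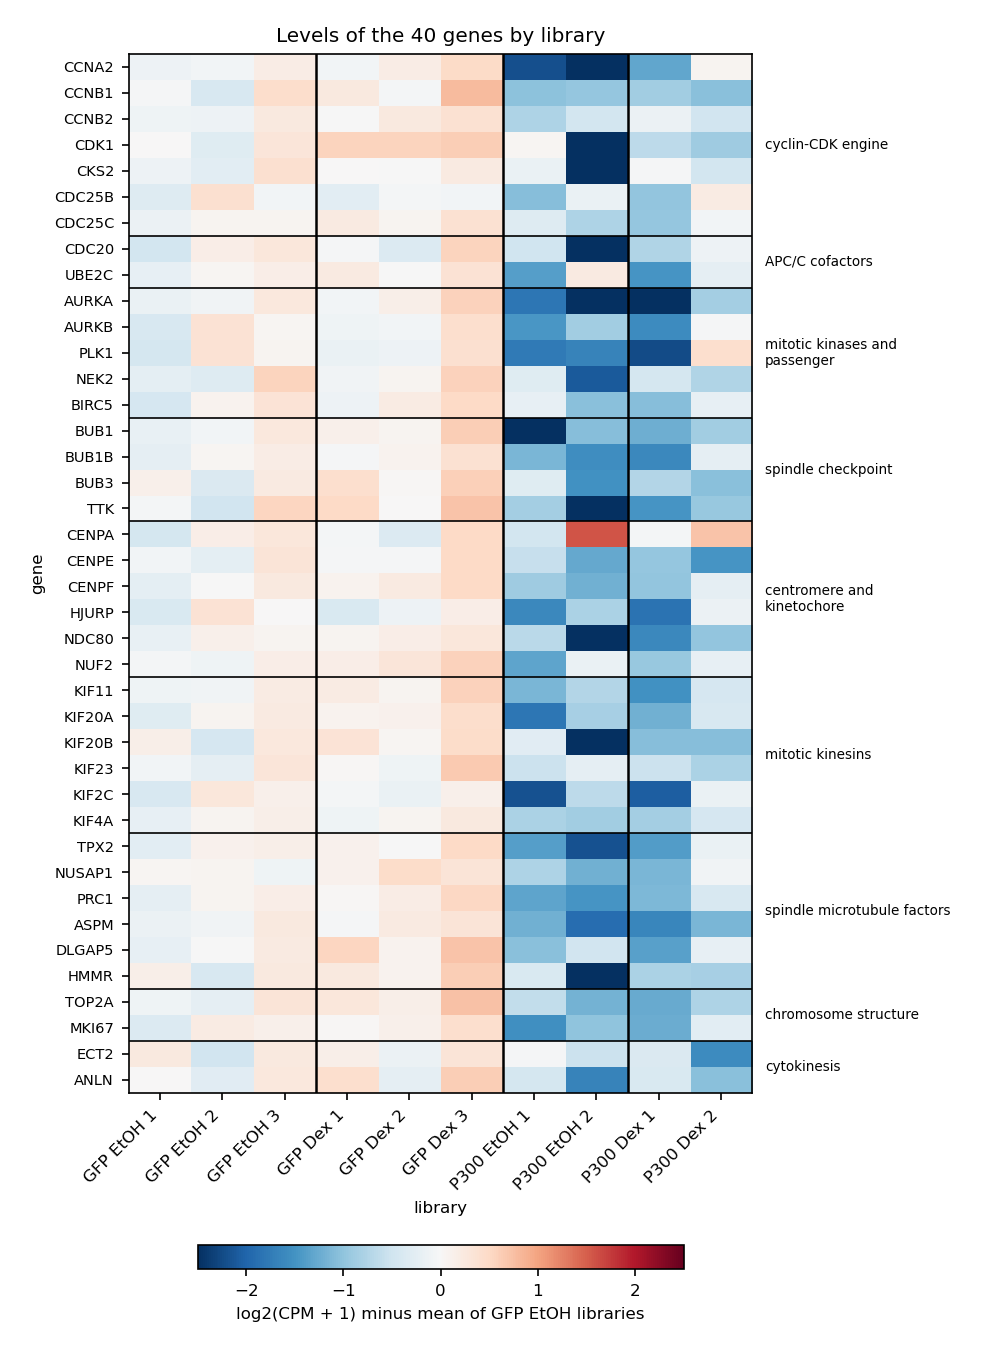
Level of each of the 40 genes (rows, grouped by role) in each of the 10 libraries (columns), as log2(CPM + 1) minus the mean of the 3 GFP EtOH libraries. Blue is lower and red higher, and the scale is cut at 2.5 on either side. The 4 P300 columns are mostly blue, CENPA is red in P300 EtOH replicate 2, and the GFP Dex column of replicate 3 is the reddest among the GFP libraries.

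The spindle microtubule factors held all 3 calls. ASPM (ENSG00000066279) keeps spindle poles focused and is lost in a form of primary microcephaly. GFP EtOH libraries held 134, 139.9 and 176 CPM of ASPM and GFP Dex libraries 147, 174 and 186 CPM. In P300 cells it was 63.9 and 38.9 CPM with EtOH and 47.1 and 66.6 CPM with Dex. The P300 libraries of both treatments all lay below the lowest GFP library. In EtOH the log2 difference was -1.53 ± 0.32 (SE, adjusted p = 0.0356) by edgeR's test, or -1.35 relative to all genes, and in Dex it was -1.57 ± 0.31 (SE, adjusted p = 0.107). PRC1 (ENSG00000198901) bundles antiparallel microtubules in the central spindle of anaphase. For PRC1, the values were 148, 183 and 196 CPM in GFP EtOH and 179, 199.8 and 250.3 CPM in GFP Dex. They were 69.5 and 62.6 CPM in P300 EtOH and 79.3 and 132 CPM in P300 Dex. Here too the 4 P300 values stayed under every GFP value, and P300 Dex replicate 2 came nearest. The log2 difference in EtOH was -1.41 ± 0.31 (SE, adjusted p = 0.0399) by edgeR's test, and in Dex -0.99 ± 0.30 (SE, adjusted p = 0.223). TPX2 (ENSG00000088325) activates Aurora A and nucleates spindle microtubules. TPX2 was measured at 163, 211 and 216 CPM in GFP EtOH and at 209, 195 and 276 CPM in GFP Dex. P300 EtOH gave 74.9 and 42.5 CPM and P300 Dex 73.7 and 174 CPM. P300 Dex replicate 2 lay within the range of the GFP EtOH libraries, the other 3 P300 libraries well under it. On the log2 scale the difference was -1.73 ± 0.41 (SE, adjusted p = 0.0479) in EtOH and -0.87 ± 0.39 (SE, adjusted p = 0.382) in Dex by edgeR's test. When all libraries were fitted with a block for the replicate number, 3 members were called lower by edgeR's test, against 1.18% of genes. These were ASPM, PRC1 and MKI67, the latter at an adjusted p = 0.0393 by edgeR's test, while TPX2 had -1.57 ± 0.38 (SE, adjusted p = 0.05996). DLGAP5, a kinesin-regulated bundling factor of spindle fibres, had 22.3 to 43.4 CPM in GFP and 9.57 to 22.3 CPM in P300 libraries. NUSAP1, which links microtubules to chromatin, had 52.1 to 78.4 CPM in GFP and 24.1 to 52.9 CPM in P300 libraries. HMMR, a spindle-pole and hyaluronan-receptor protein, had 24.3 to 49.8 CPM in GFP and 3.13 to 24.5 CPM in P300 libraries. Relative to all genes, the 6 factors had a median log2 difference of -1.11 in EtOH and -1.08 in Dex.

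The 5 mitotic kinase and passenger genes had medians of -1.03 in EtOH and -0.80 in Dex relative to all genes. AURKA encodes Aurora A, the kinase of centrosomes and spindle poles. It stood at 35.9, 38.2 and 49.1 CPM in the GFP EtOH libraries and 38.9, 44.96 and 60.9 CPM in GFP Dex. The P300 EtOH libraries had 10.9 and 4.02 CPM and the P300 Dex libraries 6.31 and 22.1 CPM. All 4 P300 values were below all GFP values. Its log2 difference was -2.38 ± 0.58 (SE, adjusted p = 0.0533) in EtOH and -1.76 ± 0.55 (SE, adjusted p = 0.239) in Dex by edgeR's test. PLK1, the Polo-like kinase that drives mitotic entry, centrosome maturation and cytokinesis, behaved unlike AURKA in 1 library. GFP EtOH libraries held 85.6, 148 and 122 CPM of PLK1 and GFP Dex libraries 103, 106 and 153 CPM. In P300 cells it was 33.5 and 35.8 CPM with EtOH and 23.9 and 155 CPM with Dex. P300 Dex replicate 2 was the highest of all 10 libraries for PLK1, and the other 3 P300 libraries were the lowest. On the log2 scale it differed by -1.78 ± 0.62 (SE, adjusted p = 0.109) in EtOH and -0.43 ± 0.58 (SE, adjusted p = 0.819) in Dex by edgeR's test. AURKB, the kinase of the chromosomal passenger complex, had 38.1 to 68.1 CPM in GFP and 16.4 to 49.7 CPM in P300 libraries, and NEK2, a kinase that separates centrosomes, had 17.8 to 34.005 CPM in GFP and 4.47 to 17.9 CPM in P300 libraries. BIRC5 (survivin), the passenger subunit that brings Aurora B to centromeres, had 28.9 to 55.5 CPM in GFP and 18.2 to 33.9 CPM in P300 libraries.

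When the replicate number was taken as a block and only the libraries compared were fitted, more members passed in EtOH. By edgeR's test 11 of 40 were then called lower, against 2% of 17272 genes, and 0 higher, against 1.44%. Ordered by adjusted p, they were TPX2, MKI67, PLK1, ASPM, PRC1, CCNA2, AURKA, HJURP, CENPF, KIF20B and KIF2C. The log2 differences in that edgeR fit were -1.64 ± 0.30 (SE, adjusted p = 8.9e-06) for TPX2, -1.16 ± 0.23 (SE, adjusted p = 1.2e-04) for MKI67 and -1.64 ± 0.34 (SE, adjusted p = 2.0e-04) for PLK1. The members' median relative to all genes was then -0.73. Number 3 occurs only in GFP, so its block term takes up that library, and this contrast rests on numbers 1 and 2. With so few libraries the spread of a gene was largely borrowed from other genes. The 11 calls and their small p-values should therefore be read with caution. In Dex the same fit called 1 of 40, against 0.0628% of genes called lower and 0.793% higher. This was AURKA, with a log2 difference of -1.79 ± 0.50 (SE, adjusted p = 0.0383) by edgeR's test. Without the block, a fit of only the compared libraries called 0 members in EtOH, where 0 of all genes were called lower.

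**Figure D3:**
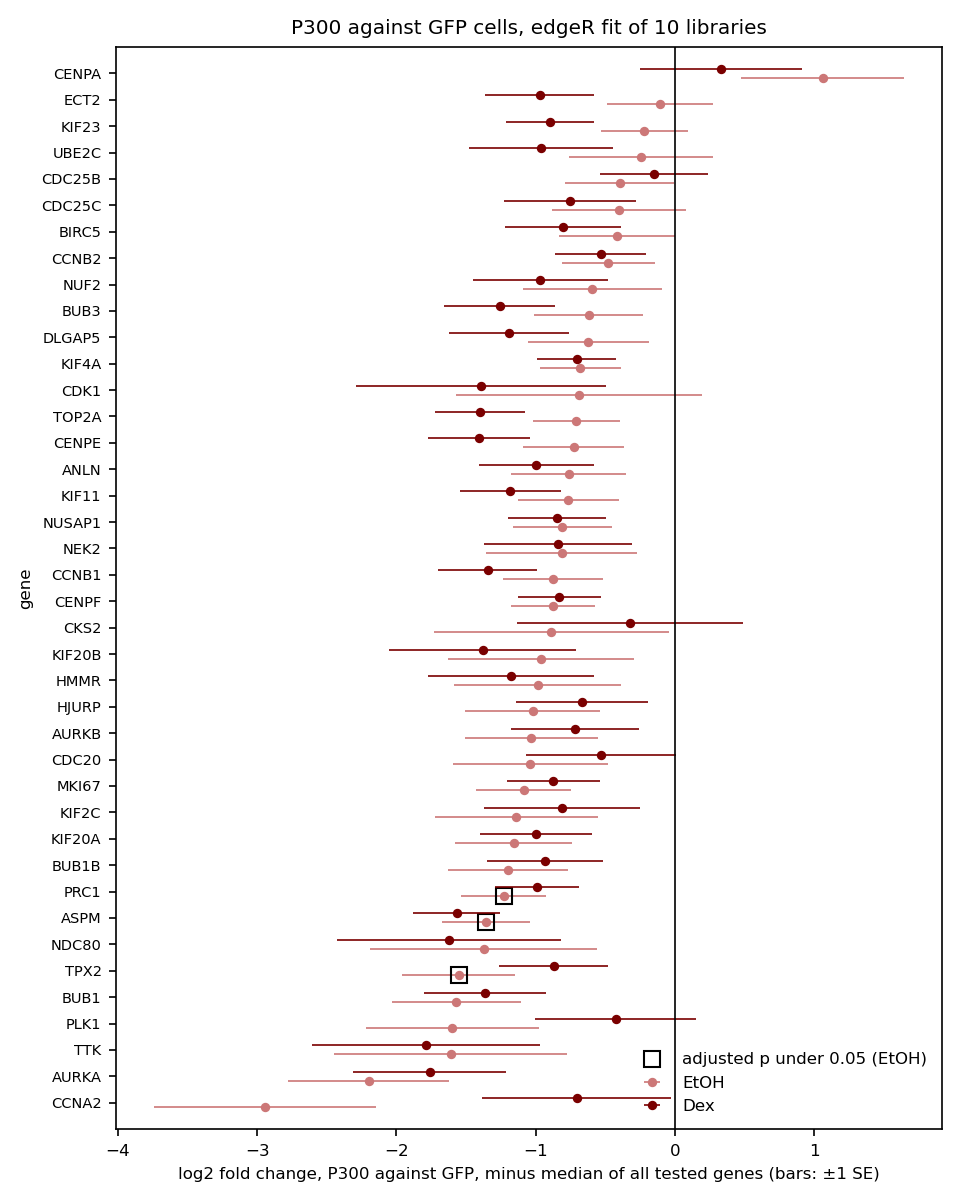
Log2 fold change of each of the 40 genes (y axis, ordered by the EtOH value) between P300 and GFP cells in EtOH (light) and Dex (dark), minus the median of all tested genes (x axis), with bars of ±1 SE from the edgeR fit of 10 libraries. Squares mark ASPM, PRC1 and TPX2, with an adjusted p under 0.05 in EtOH. All points lie left of 0 except CENPA.

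The cyclin-CDK engine had medians of -0.69 in EtOH and -0.71 in Dex relative to all genes, with 0 of 7 members called. CCNA2 encodes cyclin A2, which acts in S phase and up to mitotic entry. For CCNA2, the values were 24.4, 25.4 and 30.6 CPM in GFP EtOH and 25.4, 30.4 and 37.7 CPM in GFP Dex. They were 4.99 and 0 CPM in P300 EtOH and 10.2 and 27.98 CPM in P300 Dex. In P300 EtOH replicate 2 no count was seen, where 3 counts correspond to 1.32 CPM. The value of P300 Dex replicate 2 was within the GFP range. The log2 difference in EtOH was -3.13 ± 0.80 (SE, adjusted p = 0.05996) by edgeR's test. Exons of CCNA2 overlap EXOSC9 on the opposite strand in GENCODE 29, and the strand setting of the counting is not given in the sources used here. CCNB1 encodes cyclin B1, the partner of CDK1 at mitotic entry. CCNB1 was measured at 63.05, 48.5 and 87.4 CPM in GFP EtOH and at 76.5, 62.2 and 112 CPM in GFP Dex. P300 EtOH gave 31.2 and 32.6 CPM and P300 Dex 34.9 and 30.7 CPM. The 4 P300 libraries were close to each other and below all GFP libraries. The log2 differences were -1.06 ± 0.36 (SE, adjusted p = 0.105) in EtOH and -1.35 ± 0.36 (SE, adjusted p = 0.185) in Dex by edgeR's test. CDK1 is the mitotic kinase itself. It stood at 26.7, 21.4 and 33.3 CPM in the GFP EtOH libraries and 39.97, 39.7 and 41.3 CPM in GFP Dex. The P300 EtOH libraries had 27.7 and 0 CPM and the P300 Dex libraries 16.6 and 13.99 CPM. The P300 EtOH libraries disagreed, replicate 1 lying in the range of GFP EtOH and replicate 2 at 0. CCNB2, the second B-type cyclin, had 24.5 to 35.5 CPM in GFP and 15.4 to 24.3 CPM in P300 libraries. CKS2, a small CDK-binding subunit, had 11.5 to 18.7 CPM in GFP and 0 to 13.7 CPM in P300 libraries. CDC25B and CDC25C, the phosphatases that activate CDK1, had 342 to 562 CPM in GFP and 203 to 494 CPM in P300 libraries, and 7.41 to 11.04 CPM in GFP and 3.79 to 7.92 CPM in P300 libraries. CDC25B is the member of this role with the highest mean CPM, and its EtOH difference of -0.58 ± 0.39 (SE, adjusted p = 0.377) by edgeR's test was among the smaller ones. Besides CCNA2, CDK1 and CKS2, the members at 0 in P300 EtOH replicate 2 were NDC80 and TTK, and 31.4% of all tested genes were at 0 in that library.

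Of the spindle checkpoint genes, which delay anaphase until chromosomes are attached, 0 of 4 were called. Relative to all genes their median was -1.38 in EtOH and -1.31 in Dex, the lowest of the 9 roles in both. BUB1, a checkpoint kinase, was at 6.88 and 20.1 CPM in P300 EtOH and 17.99 and 23.3 in P300 Dex, against 37.8 to 67.1 CPM in GFP libraries. Its EtOH log2 difference was -1.75 ± 0.46 (SE, adjusted p = 0.0640) by edgeR's test. BUB3, which brings checkpoint proteins to kinetochores, is the role's member with the highest mean CPM. GFP EtOH libraries held 68.2, 48.03 and 73.02 CPM of BUB3 and GFP Dex libraries 82.9, 62.95 and 94.5 CPM. In P300 cells it was 50.4 and 21.02 CPM with EtOH and 37.1 and 29.7 CPM with Dex. Only P300 EtOH replicate 1 lay within the range of the GFP libraries. Its log2 difference was -0.80 ± 0.39 (SE, adjusted p = 0.224) in EtOH and -1.26 ± 0.40 (SE, adjusted p = 0.243) in Dex by edgeR's test. BUB1B (BubR1), a subunit of the checkpoint complex, had 39.2 to 60.9 CPM in GFP and 14.4 to 39.6 CPM in P300 libraries. TTK (MPS1), the kinase at the head of the checkpoint, had 10.04 to 24.3 CPM in GFP and 0 to 7.54 CPM in P300 libraries. The checkpoint acts on the APC/C, whose coactivator CDC20 had 38.97 to 80.2 CPM in GFP and 8.05 to 49.1 CPM in P300 libraries. Its E2 enzyme UBE2C had 24.99 to 37.3 CPM in GFP and 9.78 to 33.99 CPM in P300 libraries, and its P300 EtOH replicate 2 value, 33.99 CPM, was above those of all 3 GFP EtOH libraries. Neither was called, and the log2 difference of CDC20 in EtOH was -1.22 ± 0.56 (SE, adjusted p = 0.195) by edgeR's test.

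Among 6 centromere and kinetochore genes the median was -0.80 in EtOH and -0.90 in Dex relative to all genes, and 0 were called. CENPE, the kinesin motor that carries chromosomes to the spindle equator, stood below all GFP libraries in all 4 P300 libraries. For CENPE, the values were 51.4, 45.001 and 66.98 CPM in GFP EtOH and 52.9, 52.9 and 76.1 CPM in GFP Dex. They were 35.9 and 21.5 CPM in P300 EtOH and 27.04 and 18.6 CPM in P300 Dex. Its log2 difference was -0.91 ± 0.36 (SE, adjusted p = 0.146) in EtOH and -1.41 ± 0.37 (SE, adjusted p = 0.179) in Dex by edgeR's test. CENPF, a large coiled-coil protein of the outer kinetochore, was the highest of the 6 in mean CPM. CENPF was measured at 286, 338 and 401 CPM in GFP EtOH and at 359, 395 and 476 CPM in GFP Dex. P300 EtOH gave 181 and 147 CPM and P300 Dex 171 and 289 CPM. Only P300 Dex replicate 2 reached the lowest GFP library. The log2 difference in EtOH was -1.06 ± 0.30 (SE, adjusted p = 0.0745) by edgeR's test. NDC80 and NUF2 form the arm of the complex that grips microtubules. NDC80 had 10.9 to 15.5 CPM in GFP and 0 to 7.54 CPM in P300 libraries, and NUF2 10.8 to 17.96 CPM in GFP and 4.10 to 10.3 CPM in P300 libraries. HJURP, the chaperone that deposits CENP-A, had 96.2 to 163 CPM in GFP and 34.1 to 114 CPM in P300 libraries. CENPA, the histone H3 variant of centromeres, was the member that went the other way. It stood at 8.56, 13.7 and 14.8 CPM in the GFP EtOH libraries and 11.6, 9.32 and 17.3 CPM in GFP Dex. The P300 EtOH libraries had 8.54 and 38.01 CPM and the P300 Dex libraries 11.6 and 20.4 CPM. P300 EtOH replicate 2 was the highest of the 10 libraries, while replicate 1 was close to the lowest GFP library. The log2 difference was 0.88 ± 0.59 (SE, adjusted p = 0.372) in EtOH and 0.33 ± 0.58 (SE, adjusted p = 0.869) in Dex by edgeR's test. When P300 EtOH replicate 1 was left out, CENPA was called higher, as were 6.78% of all genes. That call rests on the shallow P300 EtOH replicate 2 alone, with its spread taken from the other groups. Exons of CENPA overlap SLC35F6 on the same strand in GENCODE 29.

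Of the mitotic kinesins, 0 of 6 were called, with medians of -0.86 in EtOH and -0.95 in Dex relative to all genes. KIF23, the motor of the central spindle, is the kinesin gene with the highest mean CPM here. GFP EtOH libraries held 96.4, 86.3 and 126 CPM of KIF23 and GFP Dex libraries 104, 94.6 and 159.6 CPM. In P300 cells it was 69.8 and 86.3 CPM with EtOH and 69.5 and 58.4 CPM with Dex. All P300 libraries were at or under the lowest GFP value, but the EtOH difference was small, -0.40 ± 0.31 (SE, adjusted p = 0.446), and in Dex it was -0.90 ± 0.32 (SE, adjusted p = 0.275) by edgeR's test. KIF11 (Eg5), which pushes the spindle poles apart, had 79.3 to 128 CPM in GFP and 29.2 to 63.9 CPM in P300 libraries. KIF20A, a central spindle motor, had 31.4 to 52.9 CPM in GFP and 10.4 to 29.1 CPM in P300 libraries, and KIF4A, a chromosome-arm motor that shortens the central spindle, had 53.7 to 74.04 CPM in GFP and 33.5 to 46.2 CPM in P300 libraries. These 3 did not overlap between the constructs. KIF20B, a motor of late cytokinesis, had 40.5 to 75.4 CPM in GFP and 3.58 to 44.7 CPM in P300 libraries. KIF2C (MCAK), which takes microtubules apart at their ends, had 47.6 to 77.7 CPM in GFP and 13.3 to 56.6 CPM in P300 libraries.

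Of the other 4 members, TOP2A and MKI67 act on chromosomes, and ECT2 and ANLN in cell division. TOP2A encodes the topoisomerase that untangles sister chromatids. For TOP2A, the values were 297, 272 and 399.6 CPM in GFP EtOH and 385, 352 and 527 CPM in GFP Dex. They were 208 and 140.0 CPM in P300 EtOH and 132 and 187 CPM in P300 Dex. The 4 P300 values lay below all GFP values. Its log2 difference was -0.89 ± 0.32 (SE, adjusted p = 0.114) in EtOH and -1.40 ± 0.32 (SE, adjusted p = 0.142) in Dex by edgeR's test. MKI67 encodes Ki-67, the coat protein of mitotic chromosomes that is used as a proliferation marker. MKI67 was measured at 878, 1291 and 1217 CPM in GFP EtOH and at 1133, 1214 and 1492 CPM in GFP Dex. P300 EtOH gave 385 and 553 CPM and P300 Dex 473 and 922 CPM. P300 Dex replicate 2 lay above the lowest GFP EtOH library and below all GFP Dex libraries. On the log2 scale MKI67 differed by -1.27 ± 0.34 (SE, adjusted p = 0.0664) in EtOH and -0.88 ± 0.33 (SE, adjusted p = 0.305) in Dex by edgeR's test. ECT2, the exchange factor that activates RhoA at the division plane, showed little difference in EtOH. It stood at 199, 120.3 and 199 CPM in the GFP EtOH libraries and 187, 151 and 209 CPM in GFP Dex. The P300 EtOH libraries had 166 and 116 CPM and the P300 Dex libraries 129.9 and 56.2 CPM. Only P300 Dex replicate 2 was clearly apart, and the log2 difference was -0.29 ± 0.38 (SE, adjusted p = 0.667) in EtOH and -0.97 ± 0.39 (SE, adjusted p = 0.327) in Dex by edgeR's test. ANLN, the scaffold of the contractile ring, had 93.98 to 176 CPM in GFP and 35.3 to 87.9 CPM in P300 libraries. The overlaps of exons with another gene in GENCODE 29 concerned 15 members in all, 4 of them on the same strand (BUB1B, CENPA, NUSAP1 and PRC1), and these counts cannot be assigned to 1 gene with certainty.

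To see whether 1 h of Dex moved these genes in control cells, GFP Dex was compared with GFP EtOH. The members lay slightly above the other genes, with a median log2 difference of 0.21 and 37 of 40 above the median of all genes (-0.00). By edgeR's quasi-likelihood test 0 of 40 were called, against 0% of all genes. At an unadjusted p under 0.05 there were 0, against 0.355% of all genes higher and 0.226% lower. This fit shares 1 estimate of spread over all groups, and dispersion was 0.062 among GFP and 0.68 among P300 libraries. The P300 spread thus enters the SE of this comparison, and the 0 calls do not show that Dex had no effect. A fit of only GFP libraries without the block also called 0 of 40, against 7 of 16697 genes higher and 0 lower. DESeq2 called 0 members, against 0.0206% of genes higher and 0.00515% lower, and voom with quality weights 0, against 0.345% and 0.113%. The groups overlapped in 37 members, and in NUSAP1, NUF2 and CDK1 all Dex libraries lay above all EtOH libraries (3 of 40, against 4.03% of all genes). In 0 members they all lay below, against 4.9%. Within the pairs of the same replicate number the picture was more even. Relative to all genes the members' median was 0.26 in pair 1, 0.14 in pair 2 and 0.28 in pair 3, with 38, 29 and 39 of 40 members higher with Dex. In all 3 pairs 27 of 40 members were higher, against 20.1% of all genes, and 0 were lower, against 17.9%. Leaving out GFP Dex replicate 3 lowered the median to 0.08, and leaving out GFP EtOH replicate 3 raised it to 0.33.

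TOP2A, DLGAP5 and CCNB1 had the smallest p in this comparison. The log2 difference was 0.38 ± 0.27 (SE, adjusted p = 1) for TOP2A, 0.48 ± 0.37 (SE, adjusted p = 1) for DLGAP5 and 0.33 ± 0.30 (SE, adjusted p = 1) for CCNB1 by edgeR's test. In the 3 pairs TOP2A was higher with Dex by 0.37, 0.37 and 0.40 (log2 CPM), about the same in each. DLGAP5 was higher by 0.77, 0.10 and 0.51, and CCNB1 by 0.28, 0.36 and 0.35. With the replicate number as a block and only GFP libraries fitted, 1 of 40 members was called higher, against 1.02% of 16697 genes, and 0 lower, against 0.635%. This was CDK1, at 0.58 ± 0.13 (SE, adjusted p = 0.0483) by edgeR's test, with values of 26.7, 21.4 and 33.3 CPM in EtOH and 39.97, 39.7 and 41.3 CPM in Dex. The CDK1 groups did not overlap. Its 3 pairs differed by 0.58, 0.88 and 0.31 on the log2 scale. When the replicate numbers were left out in turn in that fit, 1, 15 and 1 members were called higher without number 1, 2 and 3, against 1.17%, 4.51% and 0.857% of all genes. That genes of this kind lay above the other genes in these GFP libraries was known from earlier results of these data and is not independent evidence.

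**Figure D4:**
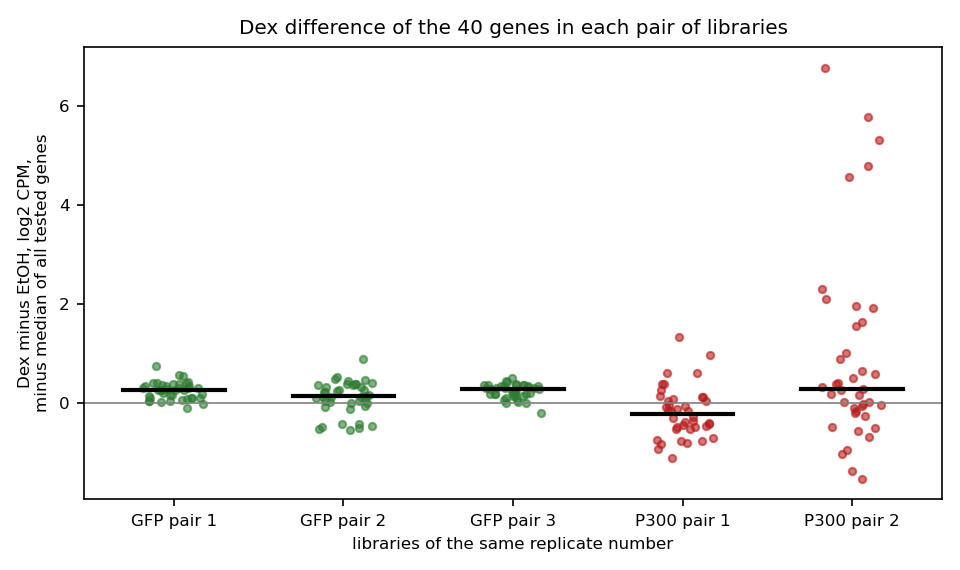
Log2 CPM difference between the Dex and the EtOH library of the same replicate number, minus the median of all tested genes (y axis), for the 40 genes in 3 GFP pairs (green) and 2 P300 pairs (red). Each point is 1 gene, black lines are medians (0.26, 0.14 and 0.28 in GFP, -0.23 and 0.28 in P300). The GFP pairs sit mostly above 0, and the P300 pairs are wider and on opposite sides of it.

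In P300 cells the pairs did not show 1 direction with Dex. The members' median relative to all genes was -0.23 in pair 1, with 27 of 40 members lower, and 0.28 in pair 2, where the median of all genes was itself 0.48. In both pairs 9 members were higher, against 31.9% of all genes, and 4 lower (CENPE, ECT2, KIF23 and UBE2C), against 15.7%. By edgeR's test 0 of 40 were called, against 0% of all genes. At an unadjusted p under 0.05, 2 were higher, against 10.2% of all genes, and 0 were lower, against 3.03%. DESeq2 called 1 member higher, CCNA2, against 1.77% of genes, and edgeR with the block on the 4 P300 libraries called 0, against 0.0361%. CCNA2 and PRC1 were higher in both P300 Dex libraries than in both P300 EtOH libraries (2 of 40, against 17.3% of all genes), and KIF23 lower (1 of 40, against 7.56%). CCNA2, TPX2 and PLK1 had the smallest p. The log2 difference was 2.64 ± 0.82 (SE, adjusted p = 0.218) for CCNA2, 1.07 ± 0.42 (SE, adjusted p = 0.310) for TPX2 and 1.37 ± 0.65 (SE, adjusted p = 0.396) for PLK1 by edgeR's test. In pair 1 PLK1 was lower with Dex by 0.49 and in pair 2 higher by 2.11 on the log2 scale, and without P300 Dex replicate 2 its log2 difference was -0.55. Pair 2 sets the shallow P300 EtOH library with 5 members at 0 against the P300 Dex library with 2.42% EP300. Leaving out P300 Dex replicate 2 put the members' median relative to all genes at -0.13. Without P300 EtOH replicate 1, 8 members were called higher, against 8.48% of all genes, and the median relative to all genes turned from 0.16 to -0.29.

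The Dex effect in P300 cells minus that in GFP cells was called for 0 of 40 members by edgeR's test, against 0% of all genes. At an unadjusted p under 0.05, 1 member was higher (CCNA2, 2.42 ± 1.00 (SE, adjusted p = 0.521)) and 0 lower, against 7.16% and 1.57% of all genes, and DESeq2 called 0, against 0.499% of genes higher. The median relative to all genes was -0.08, with 18 members above and 22 below. PLK1 and TPX2 were next, at 1.35 ± 0.82 (SE, adjusted p = 0.745) and 0.86 ± 0.54 (SE, adjusted p = 0.763) by edgeR's test. Without P300 EtOH replicate 1, 5 members were called higher, against 5.59% of all genes. The 2 Dex comparisons therefore are given side by side and were not shown to differ for any member with all 10 libraries.

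The members are poorer in G and C than most genes, and in 2 comparisons that use GFP Dex replicate 2 this went with the differences. The median GC content of their longest transcripts was 42.6%, against 48.7% for the 18863 tested genes with a value, and 32 of 40 members lay below the latter. In the GFP Dex pair 2 the Spearman correlation of member GC with the log2 difference was -0.75 over 40 genes. The 10 members lowest in GC had a median difference of 0.35 there and the 10 highest in GC -0.43. In P300 against GFP in Dex, the libraries of number 2 gave 0.75, with -1.02 for the 10 lowest and 0.00 for the 10 highest. Over all genes the same correlations were -0.51 and 0.57, so this trend was not limited to the members. In the other pairs of libraries, for the 2 comparisons of constructs and the 2 of Dex, the members' correlation lay between -0.28 and 0.29. The points of such a correlation share their libraries, and pair 2 in GFP and number 2 in Dex share GFP Dex replicate 2. With the GC trend of each library removed, 4 members were called lower in P300 EtOH (AURKA, TPX2, CCNA2 and PRC1), against 2.01% of all genes, and the members' median was -0.83 relative to all genes. In P300 against GFP in Dex, where 0 were called (0% of all genes), the median moved from -0.95 to -0.74. The members lower at an unadjusted p under 0.05 by edgeR's test went from 20 to 11, against 3.06% of all genes after the correction. For Dex in GFP cells the median moved from 0.21 to 0.15.

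**Figure D5:**
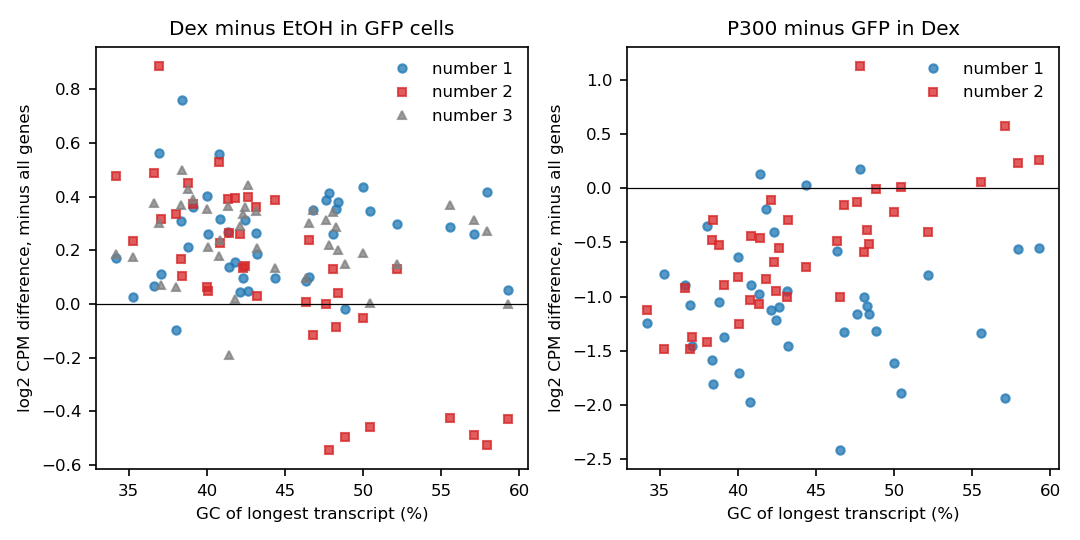
GC content of the longest transcript (x axis, %) against the log2 CPM difference minus the median of all tested genes (y axis) for the 40 genes, for Dex minus EtOH in GFP cells (left) and P300 minus GFP in Dex (right), by replicate number. The red squares of number 2 slope down on the left (rho of -0.75) and up on the right (rho of 0.75), while the other numbers are flat.

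Other genes of the cycle were looked at in 6 further lists, in all of which 0 genes were called by edgeR's test in any of the 5 contrasts. Few genes of any kind passed. With EtOH, 1.19% of all genes were called lower in P300 cells and 1.6% higher. With Dex these shares were 0% and 0.0103%, and both Dex effects and the interaction had 0%. The 0 calls in lists of 14 to 54 genes therefore do not set them apart from other genes. In P300 EtOH against GFP EtOH, of 54 other G2 and M genes 49 lay below the median of all genes, with a list median of -0.66 relative to it. Of 34 S phase genes, such as those of the MCM helicase, 31 lay below, with a median of -0.60. The 17 transcription factors of the G2 and M program had a median of -0.61 and the 17 condensin and cohesin genes -0.40. The 17 further APC/C subunits and regulators, most of which are made throughout the cycle, had -0.09. The 14 genes of G2 brakes and checkpoints had 0.32. At an unadjusted p under 0.05, 20 of 54 other G2 and M genes and 10 of 34 S phase genes were lower, against 15.3% of all genes. In Dex the medians of the 6 lists in the same order were -0.89, -0.61, -0.39, -0.49, -0.27 and -0.24, and for Dex in GFP cells 0.20, 0.19, 0.08, 0.14, 0.14 and 0.04. The S phase list thus lay on the same side of all genes as the 40 members in these 3 comparisons, and the brakes did so in 2.

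Of the regulators, FOXM1, the forkhead factor of G2 genes, was at 91.7, 149 and 139 CPM in GFP EtOH, and at 117, 115 and 160 CPM in GFP Dex. It was at 54.9 and 67.1 CPM in P300 EtOH and at 64.1 and 134 CPM in P300 Dex. In EtOH the groups did not overlap, and the log2 difference was -1.06 ± 0.37 (SE, adjusted p = 0.111) by edgeR's test. MYBL2, which encodes B-MYB, had -1.15 ± 0.59 (SE, adjusted p = 0.244) in EtOH and -0.19 ± 0.57 (SE, adjusted p = 0.932) in Dex by edgeR's test. Its level was 76.8 to 143 CPM in GFP libraries, and 28.2 and 69.8 CPM in P300 EtOH. The P300 Dex libraries disagreed, at 33.7 CPM in replicate 1 and 161 CPM in replicate 2, the highest of the 10 libraries. CDKN1A, which encodes the CDK inhibitor p21, was at 107 to 181 CPM in GFP and 135 to 195 CPM in P300 libraries, with a log2 difference of 0.34 ± 0.29 (SE, adjusted p = 0.490) in EtOH by edgeR's test. EP300 itself differed by 9.55 ± 0.98 (SE, adjusted p = 0.00516) in EtOH and 9.22 ± 0.97 (SE, adjusted p = 0.00974) in Dex by edgeR's test.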

How the data were processed

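The deposited table holds whole-number read counts per gene for 10 libraries, per the file headers. Per the submitters' processing notes, the build was GRCh37 and the tools included HTSeq 0.6.1p1, STAR 2.4.2a, DESeq2 1.10.1 and cutadapt. Which annotation and strand setting HTSeq used is not given in the sources used here. The 10 columns of normalized counts that the authors also deposited were not used.

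Each library's group and replicate number were read from its label. The main test was the two-sided quasi-likelihood test of edgeR 4.0.16 (R 4.3.3) on all 10 libraries with group as the only term, TMM factors and the default filter by group (19433 genes), with Benjamini-Hochberg adjustment over all tested genes and a threshold of 0.05, for 5 contrasts. CPM use TMM-scaled totals, and log2 CPM a prior count of 2. A member is called lower or higher when it passes the threshold in that direction. Shares of counts have exact 95% Clopper-Pearson intervals, and a count of 0 is read against 3 counts, both covering counting error only. GC content came from the longest transcript in GENCODE 29 for 18863 tested genes (97.1%).

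The members and lists were chosen with earlier results of these data known. Named with values were the called members, otherwise the 3 with the smallest p in a contrast, the member of each role with the highest mean CPM, up to 5 members called in the fit of only the compared libraries with the block, and 4 regulators. The ranges of the other members, and CENPA, BUB1 and UBE2C with single values, were added after the values were seen.

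Whether replicate numbers pair the samples was looked at in the data but is not established by them. Log2 CPM minus the group mean correlated at 0.113 to 0.601 over the 13 pairs of libraries with the same number. It correlated at -0.484 to 0.240 over 24 pairs with different numbers, and these ranges overlap. In a group of 2 libraries the deviations from the mean are exact opposites, so part of this contrast is fixed by the centring. The correlations are also not independent of each other. No 2 libraries of a group were as close as sampling noise by a chi-square test over genes. In GFP, number 2 stood apart from numbers 1 and 3. Chi-square per degree of freedom was 10.25 between numbers 1 and 3 in GFP EtOH, and 74.3 for either against number 2. In GFP Dex it was 9.47, against 67.65 and 73.24. Between the 2 libraries it was 62.07 in P300 EtOH and 267.1 in P300 Dex. The labels do not name a batch, and the part of this in the results was not tested. The alternatives were the replicate block, only the libraries compared, DESeq2 1.42.0, voom with quality weights (limma 3.58.1), RLE factors or library sizes alone, no filter or 5 CPM in 2 libraries, EP300 removed, the GFP libraries of number 3 left out, and each library left out. GC correction and the block with a number left out were added after seeing the data. The unblocked edgeR, voom and DESeq2 fits of all 10 libraries were tried on simulated counts with a spread close to that of the GFP libraries in every group. This does not cover the wider spread of the P300 libraries, nor the fits with the block, with only the compared libraries or with GC correction.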

Additional observations from a re-analysis of the deposited data

Results flagged for a closer look

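CENPE and KIF23 were flagged because all 3 GFP pairs of libraries were higher with Dex and both P300 pairs were lower. The Dex effect in P300 cells minus that in GFP cells was -0.50 on the log2 scale for CENPE (adjusted p = 0.914 by edgeR's quasi-likelihood test) and -0.50 for KIF23 (adjusted p = 0.886). The rule of opposite signs is itself no test, and the interaction test did not call a difference. In pair 1 of P300 the log2 difference of KIF23 was -0.0048, close to no difference.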

How the results depend on the processing

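With the replicate block, members called in P300 against GFP in EtOH went from 3 to 11 when only the libraries compared were fitted. The share of all genes called lower went from 1.19% to 2%. The members' median relative to all genes was then -0.73. With the GC trend also removed, 8 were called lower (median -0.73), against 222 of 16802 genes. Both of these fits rest on numbers 1 and 2 and borrow most of their spread from other genes. The block on all libraries moved that median from -0.88 to -0.76, and to -0.74 with GC correction. Calls in this comparison were 10 by DESeq2, against 5.45% of all genes called lower. They were 5 with library sizes alone (414 of 19433 genes called lower) and 5 with no filter (244 of 25538). RLE factors gave 2 (191 of 19433), 5 CPM in 2 libraries 2 (107 of 12905) and EP300 removed 2 (199 of 19843). Only the libraries compared gave 0 (0 of 17272) and voom with quality weights 0 (2 of 19433). Leaving out the GFP libraries of number 3 gave 0 (0 of 19063), with a median of -0.74. For P300 against GFP in Dex, DESeq2 called 4 members lower, against 0.648% of all genes. The compared libraries with the block called 1, against 0.0628%, and 1 with GC correction, against 11 of 17042 genes. For Dex in GFP cells the compared libraries with the block called 1 higher, against 1.02% of all genes. With GC correction it was 1, against 240 of 16242 genes. When number 1, 2 or 3 was left out of both groups, 1, 15 and 1 were called, against 1.17%, 4.51% and 0.857%. For Dex in P300 cells DESeq2 called 1 higher, against 1.77% of all genes. The median of all tested genes in P300 against GFP in EtOH was -0.18 with TMM, -0.04 with RLE factors and -0.41 with library sizes alone, and 39 of 40 members lay below it with each of these. Without EP300 in the total, the members' shares were 0.258% and 0.248% in P300 EtOH and 0.237% and 0.356% in P300 Dex. The log2 difference of ECT2 between P300 and GFP in EtOH turned to 0.0596 with GC correction, 0.11 with the block added and 0.0682 with only the compared libraries, and that of KIF23 to 0.0220 with GC correction and the block. Leaving out each library in turn gave 0 to 16 called members for P300 in EtOH (median -0.94 to -0.37), 0 to 6 for P300 in Dex (-1.29 to -0.60), 0 for Dex in GFP (0.0802 to 0.33), 0 to 8 for Dex in P300 (0.55 to -0.29, reversed without P300 EtOH replicate 1) and 0 to 5 for the interaction (-0.48 to 0.26). The median for Dex in P300 was also below 0 without P300 Dex replicate 2, at -0.13. PLK1 ranged from -0.55 to 2.20 for Dex in P300 and from -0.57 to 2.17 for the interaction, both lowest without P300 Dex replicate 2. The cause of these changes was not tested. With 2 libraries a group in P300 cells, 1 of them with 2278717 counts, members of low level cannot be compared well.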
